A study of Mus musculus with 6 samples.

Results

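Sestrins and the GATOR complexes carry amino acid signals to mTORC1, the kinase complex that promotes growth and restrains autophagy. GATOR1 (Nprl2, Nprl3 and Depdc5) switches off the Rag GTPases that bring mTORC1 to the lysosome, and GATOR2 (Mios, Wdr24, Wdr59, Seh1l and Sec13) opposes GATOR1. Sestrins bind GATOR2 and hold it back when leucine is scarce, and Sesn2 is the best studied leucine sensor among them. Sestrin transcripts are also known stress-induced messages: p53 and FoxO factors act on Sesn1, FoxO factors on Sesn3, and ATF4, NRF2 and p53 on Sesn2.

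Expression was measured on short-oligonucleotide arrays in wild-type mouse embryonic fibroblasts (MEFs), connective tissue cells grown from embryos. Cells starved for 6 h (3 arrays) were compared with control cells kept in Normal Medium (3 arrays). The labels give no further genotype, age or strain, and do not say which nutrients were withdrawn. The titles number the arrays as biological replicates but name no separate cultures. The p-values therefore cover the spread among these arrays alone, which may be technical. The members are all probe sets annotated to exactly 1 of 10 listed sestrin and GATOR genes. They came to 11 probe sets of 7 genes (Sesn1, Sesn2, Sesn3, Nprl2, Nprl3, Mios and Sec13), among 20380 probe sets of 12393 genes in all. Depdc5, Wdr24 and Wdr59 were not analysed here. No filter on dim values was applied, so all 11 probe sets entered the test.

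Values are log2 array signals, given as mean ± SD over the 3 arrays of a group (n = 3), and each difference is the starved mean less the control mean. A probe set was called higher or lower at an adjusted p below 0.05 (limma, Benjamini-Hochberg over all 20380 probe sets). A gene with several probe sets is counted by its brightest. The arrays correlated with r of 0.996 to 0.998 within a group and 0.982 to 0.985 between groups. Of 12 fibroblast markers, 11 lay above the median level of all genes. The mean over this list was 11.2 to 11.3 in control and 11.5 to 11.6 in starved arrays, with 7 markers higher, 2 lower and 3 not passed, and its part in the results was not tested. Of the macrophage and blood cell markers 10 of 11 lay below that median, with a mean level over the list of 4.79 to 4.83 in control and 4.66 to 4.84 in starved arrays, and so did all 7 endothelial, 7 epithelial, 5 skeletal muscle and 5 neural markers measured. In such bulk RNA, fewer expressing cells and less RNA per cell cannot be told apart.

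The scale of the arrays bears on every direction given here. Starved arrays read higher on the 24 poly-A spike-in probe sets (transcripts added to the RNA) by 0.43 and on the 18 probe sets of the hybridization controls (added before hybridization) by 0.19, while the median of all genes differed by −0.048. Poly-A centring, which sets each array to the mean of the poly-A spike-ins, lowers every difference by 0.43 and moves the median of all genes to −0.47. Centring on the hybridization controls lowers every difference by 0.19. Of all probe sets 40.9% were called as deposited, 59.5% under hybridization-control centring and 80.0% under poly-A centring. The higher ones made up 49.8%, 21.3% and 7.78% of these calls. Most calls over all probe sets are thus lower under either spike-in centring, and the list counts below are to be read beside this. Directions below are those of the deposited scaling. Where a spike-in centring changed the sign or call of a member's probe set, this is given with it. The same holds for the brightest probe set of the largest called rise and fall of each list, and for the genes nearest to a sestrin. For other genes named from the lists, only the counts and medians of the list are given under these centrings.

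The sestrins went in opposite directions: Sesn2 fell 1.77-fold, while Sesn3 rose 1.46-fold and Sesn1 1.23-fold in the deposited scaling (under poly-A centring neither rise passed, at 0.12 for Sesn3 and −0.12 for Sesn1). Sec13, the subunit that GATOR2 shares with other complexes, fell 1.37-fold. Nprl2, Nprl3 and Mios did not pass the test. Thus 2 of 7 genes were higher, 2 were lower and 3 did not pass, against 21.3% higher and 20.7% lower among all genes. Altogether 4 of 7 genes were called, where 42% of all genes were, and 7 of 11 probe sets, where 40.9% of all were. With so few genes these shares are not a result about the members as a group. Their median difference was −0.04, close to the −0.05 of all genes.

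**Figure D1:**
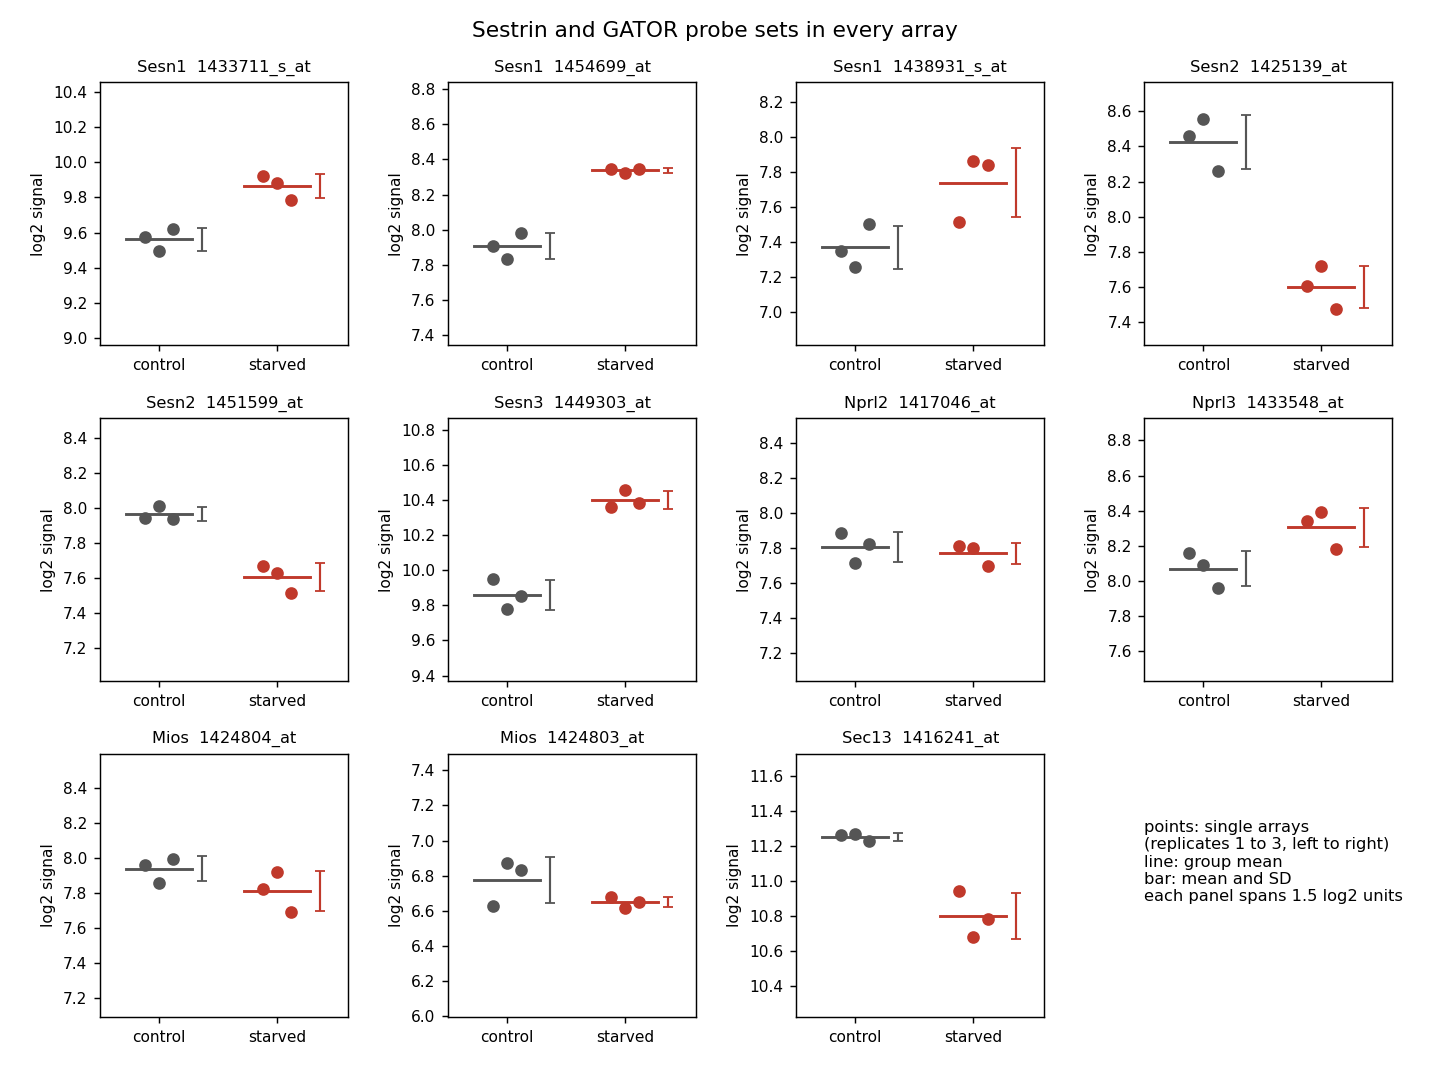
Log2 signal of the 11 probe sets in every array; points are single arrays in the order of replicate number, horizontal lines group means and bars the mean with its SD (n = 3 arrays per group), and every panel spans the same range. The 2 groups do not overlap for Sesn1, Sesn2, Sesn3, Nprl3 and Sec13, and they overlap for Nprl2 and Mios; the higher means of Sesn1 and Nprl3 turn in sign for 3 of their 4 probe sets under poly-A centring.

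Because the sestrins moved in opposite directions, their promoters are shown as annotated by RefSeq (GRCm38.p6), from 250 bases before to 50 after the start. All 7 genes matched an entry, and Sesn1 has 2 annotated starts. Both strands were searched for TGATGNAA (the C/EBP-ATF element bound by ATF4), GTAAACA (FoxO), TGACNNNGC (core of the antioxidant response element bound by NRF2), CACGTG (the E-box bound by TFEB and MYC) and the p53 half-site, and matches are in capitals. Sesn1 at chr10:41810324-41810623 (+), Sesn1 at its other start at chr10:41887189-41887488 (+), Sesn2 at chr4:132510407-132510706 (−) and Sesn3 at chr9:14276051-14276350 (+) follow, each read along the gene's strand.
Sesn1, first start: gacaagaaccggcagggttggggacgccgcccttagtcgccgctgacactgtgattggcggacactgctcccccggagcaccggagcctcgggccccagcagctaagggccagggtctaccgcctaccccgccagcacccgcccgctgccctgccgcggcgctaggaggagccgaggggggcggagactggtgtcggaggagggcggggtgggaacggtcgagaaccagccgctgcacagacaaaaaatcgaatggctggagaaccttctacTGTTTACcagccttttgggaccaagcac
Sesn1, other start: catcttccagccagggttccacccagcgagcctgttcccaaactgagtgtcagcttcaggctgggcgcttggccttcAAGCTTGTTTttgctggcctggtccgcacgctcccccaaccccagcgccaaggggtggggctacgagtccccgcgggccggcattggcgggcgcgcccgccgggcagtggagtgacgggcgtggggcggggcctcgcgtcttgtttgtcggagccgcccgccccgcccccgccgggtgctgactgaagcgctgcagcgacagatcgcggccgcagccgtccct
Sesn2: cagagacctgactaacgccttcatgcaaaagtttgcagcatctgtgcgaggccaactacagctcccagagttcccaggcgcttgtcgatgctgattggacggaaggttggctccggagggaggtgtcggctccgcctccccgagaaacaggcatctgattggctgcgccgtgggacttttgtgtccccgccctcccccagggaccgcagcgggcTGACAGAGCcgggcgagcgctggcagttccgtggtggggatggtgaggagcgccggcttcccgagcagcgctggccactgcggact
Sesn3: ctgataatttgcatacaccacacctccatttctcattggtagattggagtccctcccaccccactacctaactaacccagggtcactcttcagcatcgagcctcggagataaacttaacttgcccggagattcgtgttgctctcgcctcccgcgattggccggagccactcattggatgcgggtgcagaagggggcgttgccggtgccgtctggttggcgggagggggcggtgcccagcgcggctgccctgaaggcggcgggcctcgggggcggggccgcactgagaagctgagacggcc

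The first Sesn1 window held 1 FoxO match, 22 bases after the start, and the other held 1 p53 half-site, 173 bases before it. Sesn2 held 1 antioxidant response element core, 36 bases before its start. In Sesn3, Mios, Sec13 and Nprl3 none of these letters were found in the window, and Nprl2 held 1 p53 half-site. Of all 32851 promoters in the table, 3.65% held the FoxO letters, 8.36% the p53 half-site, 12.4% the antioxidant core, 3.97% the C/EBP-ATF letters and 7.15% the E-box. No match overlapped another. Matches describe the sequence and are no evidence of binding.

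Sesn2 showed the largest change of the members. Its brightest probe set, 1425139_at, read 8.46, 8.56 and 8.26 in the control arrays and 7.61, 7.72 and 7.47 in the starved arrays. Every starved array lay below every control array, with a gap of 0.54 between the groups. The mean fell from 8.43 ± 0.15 to 7.60 ± 0.12, a difference of −0.83 (SE 0.10, 95% CI −1.05 to −0.60, adjusted p = 0.000172, limma). Only 2.75% of all genes had a lower difference. The fall passed in all 18 alternatives tried, between −1.25 under poly-A centring and −0.59 for the mean of its probe sets.

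A dimmer Sesn2 probe set, 1451599_at, was designed from the same expressed sequence, so it is not independent of the brightest. It read 7.94, 8.01 and 7.94 in control and 7.67, 7.63 and 7.51 in starved arrays. These groups did not overlap either, and the difference of −0.36 passed (SE 0.07, adjusted p = 0.00391, limma). The 2 probe sets therefore agreed in direction but not in size, with 95% intervals of −1.05 to −0.60 and −0.52 to −0.19 that do not overlap.

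Sesn3 was measured by 1449303_at alone, at 9.95, 9.78 and 9.85 in control and 10.36, 10.46 and 10.39 in starved arrays. All starved arrays lay above all control arrays, by at least 0.41. The mean rose from 9.86 ± 0.09 to 10.40 ± 0.05, a difference of 0.54 (SE 0.08, 95% CI 0.37 to 0.71, adjusted p = 0.000423, limma), and 9.88% of all genes had a higher difference. The rise passed without any single array and under hybridization-control centring. It did not pass under poly-A centring (0.12, adjusted p = 0.302).

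Sesn1, a p53-responsive sestrin, was measured by 3 probe sets, which all had a higher mean in starved cells. Of these, 1433711_s_at and 1454699_at were designed from the same expressed sequence, and 1433711_s_at and 1438931_s_at can bind several transcripts, so their agreement is not independent. The brightest, 1433711_s_at, read 9.57, 9.49 and 9.62 in control and 9.92, 9.88 and 9.79 in starved arrays. Its groups did not overlap, and the difference was 0.30 (SE 0.07, 95% CI 0.13 to 0.47, adjusted p = 0.0101, limma). The call was lost under hybridization-control centring (0.11, adjusted p = 0.281), and under poly-A centring the sign turned (−0.12, adjusted p = 0.268).

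The dimmer Sesn1 probe set 1454699_at read 7.91, 7.83 and 7.98 in control and 8.35, 8.32 and 8.35 in starved arrays. Its starved arrays were nearly equal and clear of the controls, and the difference of 0.43 passed (SE 0.07, adjusted p = 0.00111, limma) but was 0.0057 and not called under poly-A centring. The third, 1438931_s_at, read 7.35, 7.26 and 7.50 against 7.51, 7.86 and 7.84, so that starved replicate 1 lay just above the highest control array. Its difference of 0.37 passed (SE 0.11, adjusted p = 0.0236, limma), but not without control replicate 1 (adjusted p = 0.0653), control replicate 2 (adjusted p = 0.0882), starved replicate 2 (adjusted p = 0.0824) or starved replicate 3 (adjusted p = 0.0758). It did not pass under hybridization-control centring (0.18) or poly-A centring (−0.056) either.

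Comparing the sestrins within each array removes any scaling shared by an array. Probe sets differ in binding, so only the change of such a difference has a meaning, not its size. The signal of Sesn1 minus that of Sesn2 was 0.93 to 1.36 in control and 2.17 to 2.32 in starved arrays, so their changes differed by 1.13. The signal of Sesn2 minus that of Sesn3 lay between −1.59 and −1.22 in control and between −2.91 and −2.74 in starved arrays, a difference of −1.37 between their changes. For Sesn1 minus Sesn3 the ranges were −0.38 to −0.23 and −0.60 to −0.44, a difference of −0.24. These values use the brightest probe set of each sestrin, and with them control and starved arrays did not overlap in any of the 3 pairs. With either dimmer Sesn1 probe set, 1454699_at or 1438931_s_at, the groups overlapped for Sesn1 minus Sesn3. How often other pairs of genes separate in this way was not computed. Each pair gave p = 0.1 in an exact two-sided permutation test (adjusted p = 0.1 over the 3 pairs), the smallest value that 3 arrays against 3 allow, so this test cannot reach 0.05.

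Of GATOR1, 2 subunits were measured and 0 were called by limma, or 1 at an unadjusted p below 0.05. Nprl2 read 7.88, 7.71 and 7.82 in control and 7.81, 7.80 and 7.70 in starved arrays, which overlap. Its difference was −0.04 (SE 0.08, 95% CI −0.21 to 0.13, adjusted p = 0.72, limma). This interval leaves room for a change of up to 0.21 in the deposited scaling, and under poly-A centring (−0.46) or hybridization-control centring (−0.23) Nprl2 was called lower.

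Nprl3, the partner of Nprl2, read 8.16, 8.09 and 7.96 in control and 8.34, 8.39 and 8.18 in starved arrays. The groups did not overlap but lay only 0.02 apart, and the difference of 0.24 narrowly missed the threshold (SE 0.09, 95% CI 0.04 to 0.43, adjusted p = 0.0564, limma). It passed without starved replicate 3 (0.30, adjusted p = 0.0265) and in 6 settings that keep all arrays, such as testing only the brightest probe set of each gene (adjusted p = 0.0453), and it lay at −0.19 under poly-A centring.

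In GATOR2, Mios did not pass. Its probe set 1424804_at read 7.96, 7.86 and 8.00 in control and 7.82, 7.92 and 7.69 in starved arrays, with overlap. The difference was −0.13 (95% CI −0.31 to 0.06, adjusted p = 0.255, limma). The dimmer 1424803_at, designed from the same expressed sequence, gave the same −0.13 (adjusted p = 0.253, limma). Both were called lower under poly-A centring (−0.55 for each) and under hybridization-control centring (−0.31 and −0.32).

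Sec13, a beta-propeller protein that also serves in the COPII coat of vesicles leaving the endoplasmic reticulum and in the nuclear pore, fell. It read 11.26, 11.27 and 11.23 in control and 10.94, 10.68 and 10.78 in starved arrays. The controls were nearly equal, and every starved array lay at least 0.29 below them. The difference was −0.45 (SE 0.08, 95% CI −0.64 to −0.26, adjusted p = 0.00207, limma), and it passed in all 18 alternatives, with values from −0.88 to −0.39. Of all genes 8.96% had a lower difference. Starved and control arrays were fully separated in 5 of the 7 genes, as they were in 54% of all genes.

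**Figure D2:**
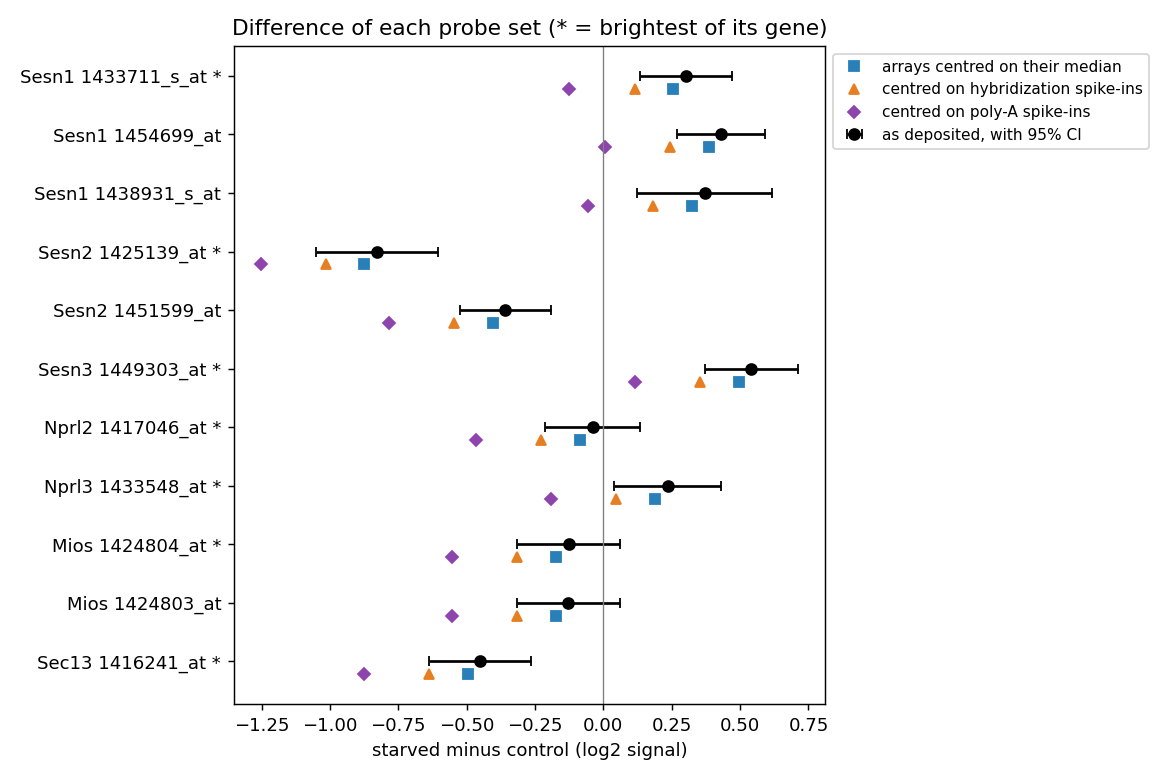
Difference between starved and control arrays for each probe set on the log2 scale; circles with bars are the deposited values with their 95% CI, and squares, triangles and diamonds the values with arrays centred on their median, the hybridization controls and the poly-A spike-ins. Sesn2 and Sec13 lie below 0 under all 4 scalings and Sesn3 above 0 under all 4; 1433711_s_at and 1438931_s_at of Sesn1 and the probe set of Nprl3 turn below 0 with the poly-A centring.

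Seh1l, the GATOR2 subunit that like Sec13 also belongs to the nuclear pore, stands outside the listed members and was singled out after its values were seen. It fell by 0.46, from 9.53 ± 0.12 to 9.07 ± 0.18 (SE 0.11, adjusted p = 0.00697, limma). All 6 of its probe sets were called lower, between −0.85 and −0.46, and its brightest kept its call without any single array. Other genes of the complexes that hold Sec13 were called higher and lower in the deposited scaling, but 0 were called higher under poly-A centring. Among all genes 21.3% were higher and 20.7% lower, so the split in these short lists is not a result about them. In the COPII coat 4 of 10 measured genes fell and 2 rose (median −0.12), though without control replicate 2 only 2 fell. Under poly-A centring 0 of these 10 were higher (0 at an unadjusted p below 0.05) and 7 lower (median −0.54). Preb, which activates the small GTPase of this coat, fell by 0.64 and the cargo adaptor Sec24b rose by 0.60 (0.17 and not called under poly-A centring). Among 8 genes of the outer ring of the nuclear pore 3 rose and 2 fell (median 0.01). Nup98 fell by 0.96, and Nup133 rose by 0.35 on its brightest probe set, with 3 of its 4 probe sets called higher and one at −0.25 that did not pass. Its brightest lay at 0.16 and was not called under hybridization-control centring, and at −0.08 under poly-A centring. Both centrings left 0 of the 8 higher (0 at an unadjusted p below 0.05) with 4 and 5 lower. The second fall in this list was lost without any 1 of 5 arrays, all but starved replicate 1.

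Other inputs of the amino acid pathway were also called both higher and lower. Among them are KICSTOR subunits, Castor2, a relative of the arginine sensor, and ligases acting on this pathway. Of 8 measured genes, Seh1l among them, 3 rose, 4 fell and 1 was not called (median −0.17). Sar1b is counted as a fall both here and in the COPII coat. Among all genes 21.3% were higher and 20.7% lower, and with so few genes these counts are not a result about the list. Castor2 rose by 0.74 (adjusted p = 0.00196, limma) on its brighter probe set, while the dimmer one lay at −0.05 and did not pass. The F-box protein Skp2 fell by 0.80 on its brightest probe set, and 5 of its 6 probe sets were called lower, while the sixth lay at 0.33 and did not pass. Under poly-A centring the split was 1 higher and 5 lower.

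Downstream of GATOR1, the genes for the Rag GTPases, their Ragulator anchor and folliculin were lower or not called. Of 9 measured genes 5 fell, 0 rose (0 at an unadjusted p below 0.05) and 4 were not called (median −0.22). Among all genes 20.7% were lower. All 9 fell under poly-A centring, where 80.0% of all probe sets were called and only 7.78% of those calls were higher. Rraga, a Rag GTPase on which GATOR1 acts, fell 1.71-fold, from 10.37 ± 0.12 to 9.60 ± 0.10 (adjusted p = 0.000137, limma). The count of 5 dropped to 3 without control replicate 1, control replicate 2 or starved replicate 3. In the list of mTORC1 subunits, the TSC complex and Rheb 4 of 7 genes rose, 0 fell (0 at an unadjusted p below 0.05) and 3 were not called (median 0.35). Of all genes 21.3% were higher, and with so few genes this count is not a result about the list. The 4 that rose were Tsc1, Tsc2, Deptor and Rhebl1, while Mtor, Mlst8 and Rheb did not pass. Rhebl1, a relative of the mTORC1 activator Rheb, rose the most, by 1.07. Under hybridization-control centring 3 genes of this list were higher and 1 was lower (median 0.16). Its median turned to −0.08 under poly-A centring, with 2 higher and 2 lower. Deptor is the gene at this median, so its sign turned as well. Not all of the 4 rises therefore kept their call under the spike-in centrings. Sestrins are also known to engage AMP-activated kinase. Of 4 measured genes, which were subunits of this kinase and its activator Stk11, 1 rose and 3 did not pass. The share of higher genes among all was 21.3%. Prkaa1, Prkaa2, Prkab2 and Prkag3 were not analysed here. Under poly-A centring 0 of the 4 were higher (0 at an unadjusted p below 0.05) and 3 lower (median 0.14 as deposited, then −0.28). The one that rose was Prkag1 (0.29, adjusted p = 0.0172, limma), whose call was lost without control replicate 2, control replicate 3 or starved replicate 2, and under hybridization-control centring (0.10). Its value was −0.14 under poly-A centring.

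Targets of the factors known to act on sestrin genes were read beside the sestrins. Targets of ATF4, a factor known to act on Sesn2, fell in 13 of 20 cases, against 1 that rose and 6 that were not called (median −0.60, and −1.02 under poly-A centring). Cth, an enzyme that makes cysteine, fell 8.82-fold and the stress protein Nupr1 rose by 0.70. NRF2 targets fell in 8 of 13 cases and rose in 2 (median −0.38). Under both spike-in centrings 10 were lower and 0 higher (0 at an unadjusted p below 0.05). Slc7a11 is counted as a fall both here and among the ATF4 targets. Gsta4 fell by 0.77, while Abcc1 rose by 0.32 but lay at 0.13 and was not called under hybridization-control centring, and at −0.11 under poly-A centring, and the other rise was lost without any 1 of 4 arrays (control replicates 2 and 3, starved replicates 1 and 2).

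Targets of FoxO factors, which are known to act on Sesn1 and Sesn3, rose in 9 of 16 cases, fell in 3 and were not called in 4. Their median of 0.45 became 0.02 under poly-A centring, with 5 higher and 6 lower. Txnip rose 5.87-fold and the mitophagy receptor Bnip3 fell by 0.46. The factor p53 is known to act on both Sesn1, which rose in the deposited scaling, and Sesn2, which fell. Of 15 p53 targets 9 rose, 0 fell (0 at an unadjusted p below 0.05) and 6 were not called. Their median of 0.40 became −0.02 under poly-A centring, with 4 higher and 4 lower. The death-promoting gene Pmaip1 rose by 1.27. All these comparisons share the same 6 arrays, and the counts describe the lists beside the 21.3% higher and 20.7% lower among all genes. Whether the factors had a part in the sestrin values was not tested.

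**Figure D3:**
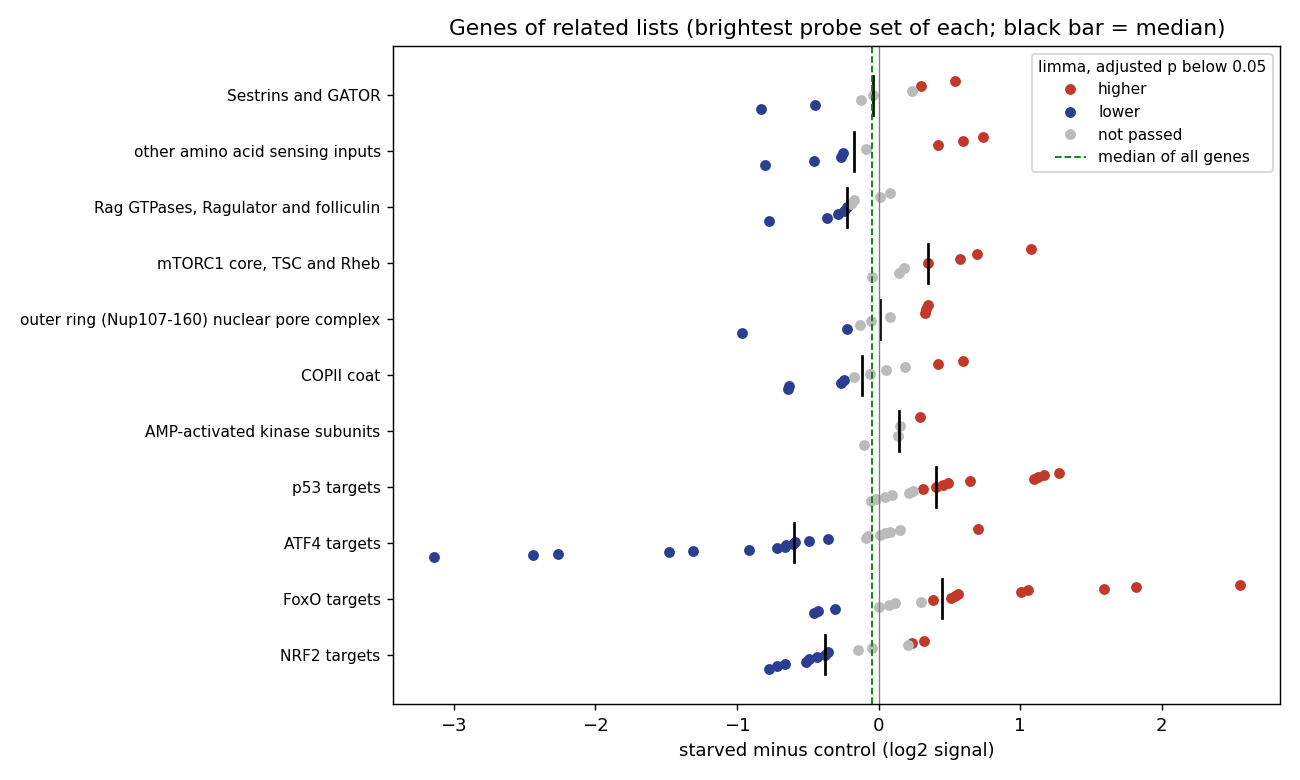
Difference between starved and control arrays on the log2 scale for the brightest probe set of each gene in the related lists, coloured by its call (limma, adjusted p below 0.05), with a black bar at the median of each list and a dashed line at the median of all genes (−0.05). Most called ATF4 targets lie to the left (13 of 14) and all 9 called p53 targets to the right in the deposited scaling; poly-A centring lowers every point by 0.43, which turns the medians of the p53 targets, the mTORC1, TSC and Rheb list, the AMP-activated kinase list and the outer ring of the nuclear pore below 0.

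By root mean square distance between profiles over the 6 arrays, each centred on its control mean, the genes most like Sesn2 were Dph7 (0.076), an enzyme of diphthamide synthesis, the cytoskeletal GTPase Septin6 (0.078) and the pyruvate carboxylase Pcx (0.082). Their differences were −0.74, −0.83 and −0.90. Nearest to Sesn3 were the CTP synthase Ctps2 (0.032), the nuclear lamina gene Lmna (0.036) and the autophagy receptor Nbr1 (0.036), with differences of 0.55, 0.53 and 0.57. For Sesn1 they were Slf2 (0.021), Tmed3 (0.024), a cargo receptor of the secretory pathway, and the collagen crosslinker Lox (0.026), with differences of 0.29, 0.31 and 0.31. The genes near Sesn1 were not called under hybridization-control centring (0.11 to 0.13) or poly-A centring (−0.13 to −0.11). Those near Sesn3 were not called under poly-A centring (0.11 to 0.14). These genes were picked for their likeness and a centring shifts all genes alike, so the shared loss of call is no further likeness. The distances are on the log2 scale and describe likeness over 6 arrays of 2 groups only.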

How the data were processed

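Total RNA of 6 samples was hybridised as biotin-labelled cRNA, 1 sample per array, per the labels' protocols. The authors deposited log2 values, 1 per probe set and array, made with affy and RMA per the submitters' processing notes (their versions: not given in the sources used here). This method equalises the signal distribution between arrays, which hides a change in messenger RNA per cell, and it shrinks the folds of dim genes. The number of arrays limits the precision.

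Groups came from the sample titles. Of 22690 probe sets, 64 were array controls, 691 were annotated to several genes and 1555 to none listed; these were left out, and the other 20380 were tested with limma 3.58.1 in R 4.3.3 (lmFit, eBayes, two-sided, no covariate). The brightest probe set over all 6 arrays stands for a gene. Tables were made with Python 3.11.15. The fit was tested on simulated data. Symbols are those of the platform annotation, and promoters are from RefSeq. The members and gene lists were chosen with earlier results of these data known. Named genes are all members, the largest called rise and fall of each related list and the 3 genes nearest to each sestrin. Seh1l was added after its values were seen, and some other list genes are named only to show what a count holds. Alternatives changed the gene unit, the probe sets used, the filter, the scaling, the variance model, the threshold, the replicate block and the arrays included.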

Additional observations from a re-analysis of the deposited data

How the results depend on the processing

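The counts of 2 higher and 2 lower member genes changed by at most 1 in the settings not named here. Under hybridization-control centring 1 was higher and 4 were lower, and under poly-A centring 0 were higher (0 at an unadjusted p below 0.05) and 4 lower. At an adjusted p below 0.01 the count of higher genes was 1. Without each array in turn 2 or 3 were higher and 2 lower. With the replicate number as a block 3 were higher, Nprl3 added, and 2 lower. Same-numbered arrays did not deviate together (r between −0.048 and −0.012 over genes). This shows no shared deviation, but cannot tell whether same-numbered samples were handled together, which the labels do not say. The poly-A centring reversed 1433711_s_at (−0.12) and 1438931_s_at (−0.056) of Sesn1 and Nprl3 (−0.19). Over all member probe sets and alternatives, 162 values kept direction and call, 10 lost the call, 13 gained it and 3 reversed. Of all probe sets, 8339 were called as deposited, 49.8% of them higher; with the hybridization centring 12129 were called, 21.3% of them higher, and with the poly-A centring 16311, 7.78% of them higher. The cause of these shifts was not tested.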
